A study of Homo sapiens with 15 samples.

Results

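The 10 genes of mucus and other secretory epithelial products described here were followed in A549, a cell line from a human lung adenocarcinoma. They were MUC5B, MUC5AC, MUC1, AGR2, CEACAM5, CEACAM6, TM4SF20, SPDEF, UPK1B and CST1, listed by symbol. A probe set (the group of array probes that reports 1 gene) was taken where the array's probe table pairs it with that symbol alone, and where a gene has several, 1 was chosen by its mean level over the 15 arrays, the highest being kept. The table pairs 1 probe set each with 9 of the 10 symbols, so that mean decided nothing, and these are 9 of 18377 genes with a probe set of their own. All 9 exceeded the array's 25th percentile of all probe sets on every array and were among the 16005 genes tested. MUC5AC was not analysed here. The 10 genes were proposed with results of these arrays in view, so the values below describe them, and their number of changes supports nothing about them.

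RNA came from 5 groups of 3 cultures, labelled as biological replicates, with 1 array per culture. The normoxic vehicle cultures received 0.1% DMSO. The hypoxic vehicle cultures received the same DMSO and were placed under hypoxia in gas-generating pouches 6 h later, for 42 h. The other 3 groups had the same DMSO and hypoxia and also 10 µM of BB2-125, BB2-162 or BB2-282 from 6 h before hypoxia. These are compounds known by code names, which the submitters describe as inhibitors of transcription, and the study asks how they alter signalling by hypoxia-inducible factor (HIF). Compounds in normoxia were not analysed here, so an action that needs hypoxia and one that does not cannot be told apart. Nothing more is said of how separate the cultures were, so a p-value here measures the spread among these arrays, which may be technical. In RNA from whole cultures, fewer cells that express a gene and less RNA per cell cannot be told apart.

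Airway mucus is a gel built on large secreted mucins, which are assembled by disulfide bonds and covered with O-linked sugars in the endoplasmic reticulum and Golgi of goblet, club and gland cells. AGR2, a member of the protein disulfide isomerase family, resides in the endoplasmic reticulum and is needed for mucin production in the gut, and the transcription factor SPDEF drives differentiation of goblet cells. The remaining genes encode proteins of the cell surface (MUC1, CEACAM5, CEACAM6, TM4SF20, UPK1B) or a secreted protease inhibitor (CST1) of epithelial cells. HIF is the transcription factor that low oxygen stabilises, and it binds a short DNA core, ACGTG or GCGTG.

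Values are log2 intensities. They are set side by side within a gene and not between genes, because probe sets differ in brightness. A difference is a limma estimate on the log2 scale, where 1 is 2-fold, given with its standard error after ±. A gene was called where its p, adjusted by Benjamini-Hochberg over the 16005 genes of the comparison, was under 0.05. The 3 comparisons of a compound with hypoxic vehicle share the same 3 vehicle arrays, and those with normoxic vehicle share theirs.

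The arrays had median intensities of 74.91 to 84.6. BB2-162 replicate 1 was farthest from its group mean, by 0.227 (root mean square over all probe sets, log2) where the other arrays were 0.111 to 0.178 away. Of 10 epithelial identity genes, 8 had a probe set and 5 of these exceeded the array median on every array, as did 4 of 9 measured markers of the alveolar type II cell. The count was 2 of 5 for basal cells, 1 of 9 for ciliated cells, 1 of 8 for leukocytes, 2 of 8 for endothelial cells and 0 of 8 for fibroblasts. The summed intensity of the fibroblast genes ran from 309.8 to 348 in normoxic vehicle, 326.1 to 367.3 in hypoxic vehicle, 341.2 to 349 with BB2-125, 359.9 to 428.9 with BB2-162 and 353.2 to 363.5 with BB2-282. That of the 8 epithelial genes ran from 22979.2 to 24545.5 in normoxic vehicle and from 15262.3 to 22947.1 over the 12 hypoxic arrays. Within that list EPCAM and CDH1 fell by 1.32 ± 0.16 and 1.53 ± 0.14 with hypoxia, and KRT19 rose by 1.42 ± 0.11. The summed alveolar type II genes ran from 1960.1 to 2076.1 in normoxic vehicle, 2396.5 to 2593 in hypoxic vehicle, 1490.7 to 1536.5 with BB2-125, 1804 to 1968.5 with BB2-162 and 2432.3 to 2559.5 with BB2-282. From normoxic vehicle to the hypoxic arrays, the sums ran from 382.1 to 426.1 and from 455.6 to 594.4 for leukocyte genes, from 386.5 to 412.4 and from 425.6 to 581.2 for endothelial genes, from 330.3 to 410.6 and from 393.5 to 563 for basal genes, and from 397.7 to 450.6 and from 406.1 to 520.6 for ciliated genes. The leukocyte and endothelial ranges did not overlap, and neither did the epithelial ones (lowest 22979.2 in normoxic vehicle, highest 22947.1 in hypoxia). The 25th percentile of the arrays ran from 23.83 to 24.74 in normoxic vehicle and from 25.42 to 29.89 in hypoxia. Its share in the sums of dim genes was not tested. The part of these shifts in the values below was not tested.

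Hypoxia without compound lowered 8 of the 9 genes and raised 0. Of all genes tested, 57.5% were called in that comparison, 29.4% lower and 28.2% higher. The tetraspan surface protein gene TM4SF20 fell by 4.14 ± 0.22, a 17.6-fold difference, and CST1, AGR2 and MUC5B fell by 2.23 ± 0.16, 1.75 ± 0.14 and 1.66 ± 0.20. CEACAM5 was the gene not called, at 0.08 ± 0.15. The median over the 9 was -0.81, against 0.09 over all genes.

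Each compound then moved these genes in its own combination. BB2-282 lowered 7 and raised 1 of the 9, where 13.6% of all genes were called, 7.94% lower and 5.65% higher. BB2-125 lowered 4 and raised 3 (28.4% of all genes called, 15% lower and 13.3% higher), and BB2-162 lowered 3 and raised 4 (36.1%, 20.4% lower and 15.7% higher). Without BB2-162 replicate 1, 6 of the 9 were called with BB2-162. The medians over the 9 were -0.80, -0.065 and 0.10 in that order, against 0.02, 0.02 and 0.06 over all genes. AGR2, CEACAM5, CEACAM6, TM4SF20, UPK1B and CST1 were called with every compound, and each moved up with at least 1 compound and down with another.

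**Figure D1:**
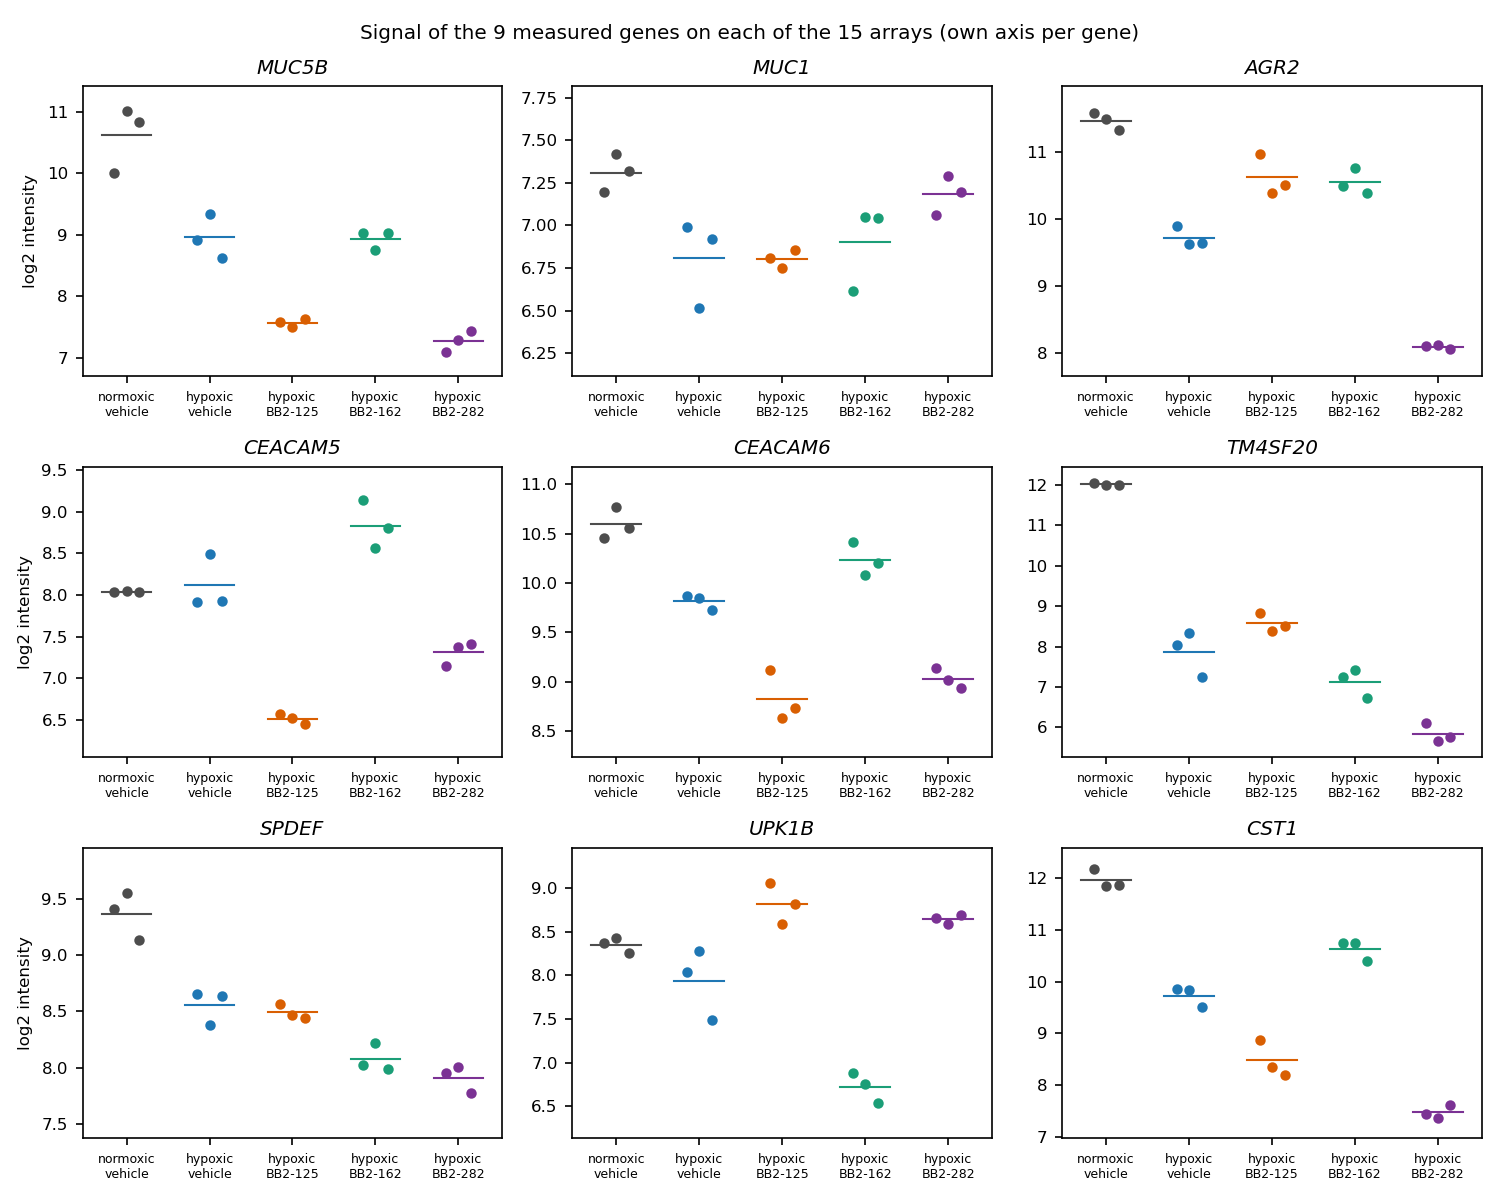
Log2 intensity (vertical axis, own range per gene) of the 9 measured genes on the 15 arrays, by group (horizontal axis). Points are single arrays and bars the group means of 3. TM4SF20, CST1, AGR2 and MUC5B are highest on the 3 normoxic arrays, and UPK1B is lowest on the 3 arrays with BB2-162.

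MUC5B encodes a gel-forming mucin, the secreted kind that makes up the mucus strands. It read 10.00, 11.02 and 10.84 in normoxic vehicle and 8.91, 9.33 and 8.63 in hypoxic vehicle. The arrays with BB2-125 read 7.59, 7.50 and 7.63, those with BB2-162 read 9.04, 8.75 and 9.03, and those with BB2-282 read 7.10, 7.29 and 7.45. All hypoxic arrays lay below the normoxic ones, and the arrays with BB2-125 and BB2-282 lay below every other array. Hypoxia gave a 3.16-fold lower signal (adjusted p = 1.25e-06 by limma). From hypoxic vehicle, BB2-125 gave -1.38 ± 0.20 (adjusted p = 4.37e-05) and BB2-282 -1.68 ± 0.20 (adjusted p = 2.95e-05), by limma. With BB2-162 the difference was -0.02, with a 95% confidence interval of -0.45 to 0.41, and the arrays overlapped. Against normoxic vehicle, hypoxia with BB2-282 left MUC5B 10.1-fold lower and hypoxia with BB2-125 left it 8.26-fold lower.

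MUC1 encodes a mucin that stays anchored in the cell membrane. Its arrays read 7.19, 7.42 and 7.32 in normoxia and 6.99, 6.51 and 6.92 in hypoxic vehicle. With BB2-125 they read 6.81, 6.75 and 6.85, with BB2-162 6.61, 7.05 and 7.04, and with BB2-282 7.06, 7.29 and 7.20. Normoxic and hypoxic vehicle did not overlap, and MUC1 fell by 0.50 ± 0.13 with hypoxia (limma, adjusted p = 0.00361), the smallest difference of the 9 after UPK1B and CEACAM5. No compound changed it by the test used: the differences from hypoxic vehicle were -0.0047 (95% interval -0.29 to 0.28) for BB2-125, 0.10 (-0.19 to 0.38) for BB2-162 and 0.38 (0.09 to 0.66) for BB2-282. The last had an adjusted p of 0.0734 by limma although its 3 arrays lay above all 3 vehicle arrays. It was called, at an adjusted p of 0.0294, when BB2-162 replicate 1 was left out of the shared fit.

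The other mucin genes did not follow 1 direction. Of 13 tested, 3 rose and 1 fell with hypoxia, 3 fell and 0 rose with BB2-125, 1 rose and 1 fell with BB2-162, and 2 rose and 1 fell with BB2-282. Their medians were 0.21, -0.03, 0.17 and 0.02, and 57.5%, 28.4%, 36.1% and 13.6% of all genes were called. MUC13, a membrane mucin, fell by 1.61 ± 0.15 with hypoxia and by a further 1.11 ± 0.15, 0.77 ± 0.15 and 1.01 ± 0.15 with BB2-125, BB2-162 and BB2-282. MUC12, also a membrane mucin, went the other way and rose by 1.55 ± 0.24 with hypoxia. BB2-125 then lowered MUC12 by 1.19 ± 0.24 and BB2-282 raised it by 1.86 ± 0.24. The tests of MUC3A gave 0.60 ± 0.11 with hypoxia and 0.54 ± 0.11 with BB2-282, both called. Without BB2-162 replicate 1, the number of these genes called with BB2-162 was 5 in place of 2. With 1 array left out it was as low as 1, and the call of MUC2 (0.27 ± 0.10) was lost in 9 of the alternatives run.

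Enzymes that start, extend or cap the O-linked sugars of mucins moved in both directions. Of 22 tested, 4 rose and 9 fell with hypoxia (median -0.14), with GALNT1 and GALNT10, which attach the first sugar, lower by 3.35 ± 0.15 and 2.59 ± 0.09 (log2 differences). ST3GAL1, which caps chains with sialic acid, rose by 2.11 ± 0.10 with hypoxia and fell by 1.18 ± 0.10 with BB2-125 and by 0.67 ± 0.10 with BB2-162. BB2-125 raised 3 and lowered 4 of the 22, BB2-162 lowered 8 and raised 0, and BB2-282 raised 2 and lowered 0, with medians of -0.02, -0.03 and 0.03. The shares of all genes called were 57.5% with hypoxia and 28.4%, 36.1% and 13.6% with the compounds in that order. GALNT12, another enzyme of the first step, rose by 1.17 ± 0.12 with BB2-282. With 1 array left out, the count of 8 with BB2-162 ran from 4 (without hypoxic vehicle replicate 1) to 13 (without BB2-162 replicate 1), and was 5 without hypoxic vehicle replicate 2, BB2-162 replicate 2 or BB2-162 replicate 3. The count of 2 with BB2-282 then ran from 1 (without hypoxic vehicle replicate 1 or BB2-282 replicate 3) to 4 (without hypoxic vehicle replicate 3 or BB2-162 replicate 1), and it was 9 with array weights.

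AGR2 rose with BB2-125 and BB2-162 and fell with BB2-282. The normoxic arrays read 11.58, 11.48 and 11.32 and the hypoxic vehicle arrays 9.88, 9.62 and 9.63. AGR2 read 10.96, 10.38 and 10.50 with BB2-125 and 10.49, 10.76 and 10.38 with BB2-162. With BB2-282 the arrays read 8.10, 8.12 and 8.05, below every other array. BB2-125 and BB2-162 arrays lay between the vehicle groups with no overlap of either. The differences from hypoxic vehicle were 0.90 ± 0.14 (adjusted p = 5.85e-05) for BB2-125, 0.83 ± 0.14 (adjusted p = 0.000139) for BB2-162 and -1.62 ± 0.14 (adjusted p = 6.4e-07) for BB2-282, by limma. From normoxic vehicle, hypoxia with BB2-282 gave a 10.3-fold lower signal, whereas with BB2-125 and BB2-162 it was 1.795-fold and 1.89-fold lower.

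The wider disulfide isomerase and oxidase group of the secretory pathway, to which AGR2 belongs, had 12 genes tested beside it. With hypoxia 4 rose and 5 fell (median -0.05). ERO1A, the oxidase that recharges these enzymes, rose by 1.75 ± 0.18 and PDIA4 fell by 1.43 ± 0.09. BB2-125 raised 4 and lowered 2, among them PDIA6 at 0.56 ± 0.11 and PDIA4 at 0.42 ± 0.09. BB2-162 lowered 4 and raised 0, with PDIA4 at -0.60 ± 0.09, and its count ran from 3 to 8 with 1 array left out, highest without BB2-162 replicate 1. BB2-282 lowered 2 and raised 0, with TXNDC12 at -0.996 ± 0.22. The 3 compound medians were 0.04, -0.26 and -0.07, where 28.4%, 36.1% and 13.6% of all genes were called, and 57.5% with hypoxia. AGR2 and PDIA4 thus both rose with BB2-125, while with BB2-162 AGR2 rose and PDIA4 fell.

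Products of goblet and club cells formed a further list of 19 tested genes, of which 3 rose and 5 fell with hypoxia (median 0.07). SLPI, a secreted antiprotease, fell by 1.78 ± 0.16 with hypoxia and by a further 1.13 ± 0.16 with BB2-282, the direction of MUC5B, AGR2 and CST1 in both. S100P, a calcium-binding protein, rose by 1.34 ± 0.15 with BB2-125 and fell by 1.17 ± 0.15 with BB2-282. LCN2, a secreted iron-siderophore binder, rose by 1.41 ± 0.14 with BB2-162. BB2-125 raised 3 and lowered 0 of the list (median 0.09), BB2-162 raised 6 and lowered 0 (0.27), and BB2-282 lowered 3 and raised 0 (-0.02). Over all genes, 57.5% were called with hypoxia and 28.4%, 36.1% and 13.6% with these compounds. The number called with BB2-162 ran from 4 to 13 with 1 array left out, highest without BB2-162 replicate 1. For hypoxia it was 4 in place of 8 without normoxic vehicle replicate 2, and for BB2-125 it was 1 in place of 3 without BB2-125 replicate 1.

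SPDEF was the transcription factor among the 9. It read 9.41, 9.55 and 9.14 in normoxia, 8.65, 8.38 and 8.64 in hypoxic vehicle and 8.56, 8.47 and 8.44 with BB2-125. BB2-162 arrays read 8.02, 8.22 and 7.99 and BB2-282 arrays 7.95, 8.01 and 7.77. SPDEF thus stepped down from normoxia to the hypoxic groups, and the BB2-162 and BB2-282 arrays lay below all others while overlapping each other. The fall with hypoxia was 0.81 ± 0.12 (limma, adjusted p = 9.11e-06). BB2-162 lowered SPDEF by a further 0.48 ± 0.12 (adjusted p = 0.00404) and BB2-282 by 0.65 ± 0.12 (adjusted p = 0.00114), by limma. With BB2-125 the difference was -0.065, with a 95% interval of -0.31 to 0.18.

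Of 22 other epithelial and goblet transcription factors tested, 6 rose and 6 fell with hypoxia (median 0.11). EHF, an ETS factor like SPDEF, fell by 4.17 ± 0.14, and the related ELF3 rose by 1.38 ± 0.13. No compound changed EHF by limma, with differences of -0.05 ± 0.14, 0.21 ± 0.14 and -0.11 ± 0.14 for BB2-125, BB2-162 and BB2-282. BB2-125 raised 2 and lowered 4 of the list (median -0.02), including the IL-4 and IL-13 signal transducer STAT6 at -0.68 ± 0.11. BB2-162 raised 6 and lowered 2 (0.21), including FOXA2 at 0.55 ± 0.11, and BB2-282 raised 3 and lowered 0 (-0.0054), including STAT6 at 0.42 ± 0.11. The last call of STAT6 was lost in 1 of the alternatives run, and the count of 3 ran from 1 to 4 with 1 array left out. Without hypoxic vehicle replicate 1 the BB2-162 count of 8 was 4, the lowest with 1 array left out, and the highest was 9. The shares of all genes called were 57.5% with hypoxia, 28.4% with BB2-125, 36.1% with BB2-162 and 13.6% with BB2-282.

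Receptors and ligands that feed mucin expression, among them those of the EGF receptor and Notch and also IL4R, were a list of 19 tested genes. EGFR itself rose by 1.52 ± 0.17 with hypoxia, fell by 2.59 ± 0.17 with BB2-125 and by 3.40 ± 0.17 with BB2-162, and differed by 0.10 ± 0.17 with BB2-282 (limma, adjusted p = 0.807). MUC5B fell with BB2-125 (-1.38 ± 0.20) and with BB2-282 (-1.68 ± 0.20), and its BB2-162 arrays overlapped hypoxic vehicle. Any link of EGFR to MUC5B was not tested. IL4R, a receptor gene for IL-4 and IL-13 and not of the EGF receptor or Notch, fell by 2.18 ± 0.11 with BB2-125. EREG, an EGF receptor ligand, rose by 2.15 ± 0.20 with BB2-162. Of the 19, hypoxia raised 7 and lowered 7, BB2-125 raised 3 and lowered 7, BB2-162 raised 4 and lowered 8, and BB2-282 raised 4 and lowered 2. The medians were 0.13, -0.11, -0.25 and 0.12, and 57.5%, 28.4%, 36.1% and 13.6% of all genes were called. With BB2-282 the count of 6 was 3 without hypoxic vehicle replicate 1 and 2 without BB2-282 replicate 3.

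CEACAM5 and CEACAM6 encode related, lipid-anchored adhesion proteins of the epithelial surface, the former known as carcinoembryonic antigen. Their promoters are shown because both genes fell with BB2-125 and BB2-282 and rose with BB2-162. The windows are the 250 bases before the gene start in RefSeq (GRCh38.p14), both on the plus strand, at chr19:41708376-41708625 for CEACAM5 and chr19:41755280-41755529 for CEACAM6. Capitals mark the HIF core, which reads ACGTG on both strands because the word CACGTG is its own reverse complement.
CEACAM5: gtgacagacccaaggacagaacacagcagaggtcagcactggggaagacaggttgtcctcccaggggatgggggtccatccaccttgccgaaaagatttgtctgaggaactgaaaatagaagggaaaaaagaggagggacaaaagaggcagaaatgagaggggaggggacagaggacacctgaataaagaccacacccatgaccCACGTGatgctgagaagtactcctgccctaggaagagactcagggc
CEACAM6: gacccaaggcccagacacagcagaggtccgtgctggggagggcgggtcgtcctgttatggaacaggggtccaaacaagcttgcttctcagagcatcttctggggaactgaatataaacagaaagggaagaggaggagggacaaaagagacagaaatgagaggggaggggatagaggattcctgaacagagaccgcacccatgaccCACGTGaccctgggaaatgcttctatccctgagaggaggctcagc
These windows were identical at 190 of 258 aligned columns, or 73.6%, against 33.0% to 48.5% for the other pairs of the 7 genes with a promoter in the table. The capitals begin 46 bases before the start of CEACAM5 and 45 before that of CEACAM6. The word CACGTG, also known as an E-box, was held by 6.49% of 27305 promoter windows of this length. HIF cores on either strand were found in 3 of the 7 genes (CEACAM5, CEACAM6 and SPDEF) and in 43.1% of all windows, so their share is near the background. A match of letters is a description and not a bound site.

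CEACAM5 read 8.03, 8.05 and 8.03 in normoxia and 7.92, 8.49 and 7.93 in hypoxic vehicle, with overlap. With BB2-125 it read 6.57, 6.53 and 6.45, with BB2-162 9.14, 8.56 and 8.81, and with BB2-282 7.15, 7.38 and 7.42. The BB2-162 arrays were the highest and the BB2-125 arrays the lowest of all 15. Hypoxia alone gave 0.08, with a 95% interval of -0.24 to 0.39. From hypoxic vehicle, the differences were -1.60 ± 0.15 for BB2-125 (adjusted p = 2.38e-07), 0.72 ± 0.15 for BB2-162 (adjusted p = 0.00108) and -0.80 ± 0.15 for BB2-282 (adjusted p = 0.00133), by limma. CEACAM5 was the gene of the 9 that ended above normoxia with BB2-162, by 0.80 ± 0.15.

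CEACAM6 read 10.45, 10.78 and 10.56 in normoxia and 9.87, 9.85 and 9.73 in hypoxic vehicle. Its arrays with BB2-125 read 9.12, 8.64 and 8.73, those with BB2-162 10.42, 10.08 and 10.21, and those with BB2-282 9.14, 9.01 and 8.94. The vehicle groups did not overlap, BB2-162 lay between them, and BB2-125 and BB2-282 overlapped each other at the bottom. CEACAM6 fell by 0.78 ± 0.13 with hypoxia, unlike CEACAM5, and by a further 0.98 ± 0.13 with BB2-125 and 0.79 ± 0.13 with BB2-282. The rise of 0.42 ± 0.13 with BB2-162 had an adjusted p of 0.0172 by limma, and 0.0527 without BB2-162 replicate 1 (range 0.0502 to 0.0668 over the 3 alternatives that ended the call, among them hypoxic vehicle replicate 3 left out).

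Of 9 other genes of the CEACAM family tested, hypoxia raised 2 and lowered 2 (median 0.12), where 57.5% of all genes were called, with CEACAM1 lower by 1.75 ± 0.15. BB2-125 lowered 1 (median 0.03; 28.4% of all genes called), CEACAM1, by 0.55 ± 0.15, which was -0.31 and not called (limma, adjusted p = 0.0697) without hypoxic vehicle replicate 2. BB2-162 raised 3 (0.13; 36.1%) and BB2-282 raised 1 (0.06; 13.6%), all by under 0.41, and each of these 4 calls was lost in some alternatives. CEACAM1 did not rise with BB2-162 by the test used, with means of 5.80 in hypoxic vehicle and 5.93 with the compound. Family members share stretches of sequence, and any cross-hybridisation between their probes was not tested.

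TM4SF20 had the largest difference of the 9 from normoxic vehicle in hypoxic vehicle, BB2-162 and BB2-282, and with BB2-125 CST1 was slightly larger (-3.49 against -3.44). It belongs to the L6 family of membrane proteins with 4 passes through the membrane, and is known to restrain the cleavage of the transcription factor CREB3L1. The normoxic arrays read 12.04, 12.00 and 12.00. In hypoxic vehicle it read 8.04, 8.35 and 7.24, and with BB2-125 8.83, 8.39 and 8.51. Arrays with BB2-162 read 7.25, 7.41 and 6.73 and those with BB2-282 6.12, 5.66 and 5.77. Every hypoxic array was far below normoxia, BB2-282 lay below all other arrays, and BB2-162 overlapped hypoxic vehicle, whose replicate 3 was its lowest.

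The fall of TM4SF20 with hypoxia ranked 15th from the lowest among 16005 differences. From hypoxic vehicle, BB2-282 gave -2.03 ± 0.22 (limma, adjusted p = 9.98e-06), and its 71.8-fold lower signal against normoxic vehicle was the lowest difference of all genes in that comparison. The smaller shifts were less stable. BB2-125 gave 0.70 ± 0.22 (limma, adjusted p = 0.0209), but 0.39 and an adjusted p of 0.144 without hypoxic vehicle replicate 3, and an adjusted p of 0.0997 without BB2-125 replicate 1. BB2-162 gave -0.74 ± 0.22 (limma, adjusted p = 0.0139). It was -0.66 (adjusted p = 0.059) without hypoxic vehicle replicate 1, -0.51 (0.0942) without hypoxic vehicle replicate 2 and -0.54 (0.0911) without BB2-162 replicate 3, by limma, so the call was lost and the direction kept.

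TM4SF4, an L6 relative, read 11.45, 11.45 and 11.28 in normoxia, 7.76, 7.90 and 7.34 in hypoxic vehicle and 6.21, 6.48 and 6.13 with BB2-282. It fell by 3.72 ± 0.15 with hypoxia and by a further 1.40 ± 0.15 with BB2-282, and rose by 0.81 ± 0.15 with BB2-125. With BB2-162 its difference was 0.04 ± 0.15. TM4SF18 fell by 2.52 ± 0.18 with hypoxia but differed by 0.10 ± 0.18 with BB2-282 (limma, adjusted p = 0.819), where TM4SF20 fell. That TM4SF20 and TM4SF18 differ in their response to BB2-282 was not tested.

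UPK1B encodes a tetraspanin of the uroplakin plaques that line the bladder. It read 8.37, 8.42 and 8.26 in normoxia and 8.04, 8.28 and 7.49 in hypoxic vehicle, with overlap. With BB2-125 it read 9.06, 8.59 and 8.81, with BB2-282 8.66, 8.59 and 8.69, and with BB2-162 6.88, 6.76 and 6.53. The BB2-125 and BB2-282 arrays were above all vehicle arrays and the BB2-162 arrays below them. From hypoxic vehicle the differences were 0.88 ± 0.16 for BB2-125 (adjusted p = 0.000318), 0.71 ± 0.16 for BB2-282 (adjusted p = 0.00576) and -1.22 ± 0.16 for BB2-162 (adjusted p = 1.27e-05), by limma. UPK1B was the gene that rose with BB2-282 while 7 others of the 9 fell. Its fall with hypoxia, -0.41 ± 0.16, had an adjusted p of 0.0345 by limma, and the difference was -0.19 with an adjusted p of 0.266 without hypoxic vehicle replicate 3. Leaving out normoxic vehicle replicate 1 or 2 also ended that call, at 0.0721 and 0.101.

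The L6, uroplakin and tetraspanin partner list held 7 tested genes beside TM4SF20 and UPK1B. With hypoxia 1 rose and 2 fell, with BB2-125 2 rose and 1 fell, with BB2-162 2 rose and 2 fell, and with BB2-282 0 rose and 3 fell. The medians were 0.09, 0.08, 0.04 and -0.18, and 57.5%, 28.4%, 36.1% and 13.6% of all genes were called. UPK1A, another tetraspanin of the uroplakin plaques, rose by 2.23 ± 0.12 with hypoxia and fell by 0.78 ± 0.12 with BB2-125 and by 1.61 ± 0.12 with BB2-162. With hypoxia and with BB2-125 UPK1A and UPK1B therefore moved in opposite directions, and with BB2-162 in the same one. The fall of UPK1B with hypoxia was the call lost in some alternatives. With BB2-282 UPK1B rose by 0.71 ± 0.16, and the UPK1A means were 8.05 in hypoxic vehicle and 7.86 with the compound. Without BB2-162 replicate 3 the count with BB2-162 was 1 in place of 4, and it was 2 without hypoxic vehicle replicate 2 or BB2-162 replicate 2.

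CST1 encodes cystatin SN, a secreted inhibitor of cysteine proteases. It read 12.18, 11.85 and 11.86 in normoxia and 9.86, 9.83 and 9.51 in hypoxic vehicle. With BB2-125 the arrays read 8.88, 8.36 and 8.20, with BB2-162 10.75, 10.74 and 10.40, and with BB2-282 7.44, 7.37 and 7.61. None of the 5 groups overlapped another, in the order normoxia, BB2-162, hypoxic vehicle, BB2-125 and BB2-282. Hypoxia gave a 4.70-fold lower signal (limma, adjusted p = 7.71e-10). From hypoxic vehicle, BB2-162 raised CST1 by 0.90 ± 0.16 (adjusted p = 0.00026), whereas BB2-125 lowered it by 1.25 ± 0.16 (adjusted p = 8.35e-06) and BB2-282 by 2.25 ± 0.16 (adjusted p = 7.73e-08), by limma. The last ranked 2nd from the lowest of 16005 differences, with TM4SF20 3rd, MUC5B 7th and AGR2 8th.

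Near-identical cystatin transcripts can bind the same probes, so their signals are uncertain, and the relatives are given beside CST1. CST2 read 9.25, 9.07 and 8.82 in normoxia, 7.93, 7.90 and 7.84 in hypoxic vehicle, 7.47, 7.54 and 7.42 with BB2-125, 8.38, 8.54 and 8.38 with BB2-162 and 7.40, 7.15 and 7.28 with BB2-282. It kept the order of the CST1 group means, with differences from hypoxic vehicle of -0.41, 0.55 and -0.61 for BB2-125, BB2-162 and BB2-282 (limma, all called). CST4, chosen after its values were seen, rose by 0.32 ± 0.11 with hypoxia, where CST1 and CST2 fell, and was not called with any compound (-0.20, 0.20 and -0.12). Of 15 other cystatins and cysteine cathepsins tested, 5 rose and 5 fell with hypoxia (median 0.03), 4 rose and 1 fell with BB2-125 (0.11), 4 rose and 3 fell with BB2-162 (0.20), and 3 rose and 3 fell with BB2-282 (0.0043). Among all genes, 57.5%, 28.4%, 36.1% and 13.6% were called in that order. Cathepsin L (CTSL), a cysteine protease of the lysosome, fell by 1.65 ± 0.12 with hypoxia and rose by 1.94 ± 0.12, 0.94 ± 0.12 and 0.82 ± 0.12 with BB2-125, BB2-162 and BB2-282. The BB2-162 count of 7 ran from 6 to 12 with 1 array left out, highest without BB2-162 replicate 1, and the BB2-282 count of 6 was 3 without hypoxic vehicle replicate 1.

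**Figure D2:**
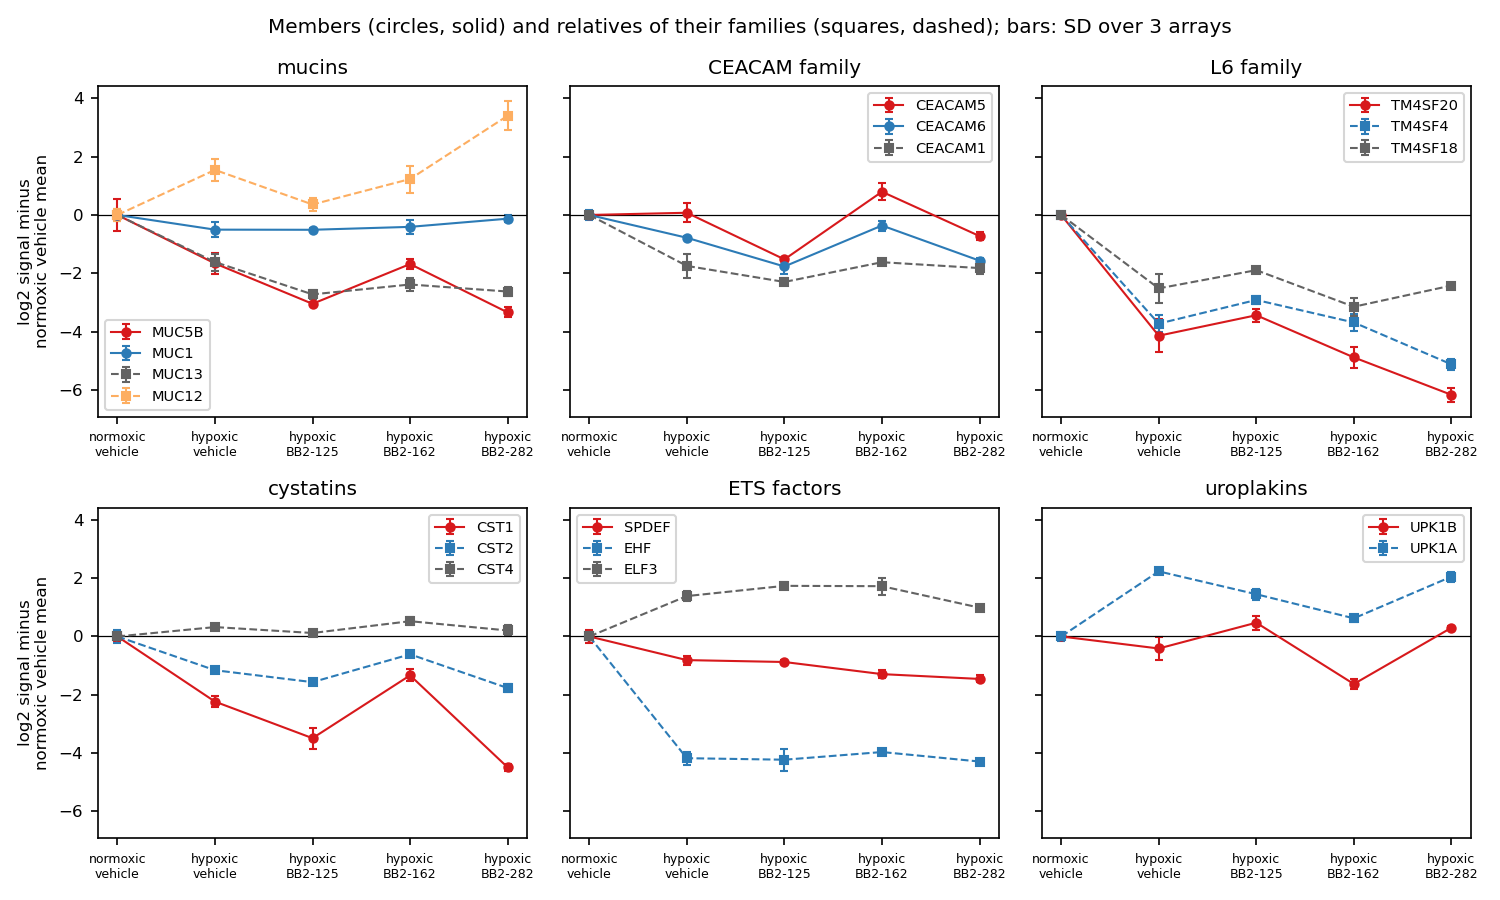
Group mean of log2 intensity minus the normoxic vehicle mean (vertical axis) in the 5 groups (horizontal axis), with bars for the SD over 3 arrays. Circles with solid lines are genes of the 9 and squares with dashed lines are relatives chosen after their values were seen. TM4SF4 follows TM4SF20 at a smaller scale, except that with BB2-162 TM4SF20 is below its hypoxic vehicle mean and TM4SF4 is not. CST2 follows CST1 at a smaller scale, whereas MUC12, CST4, ELF3 and UPK1A lie above 0 in hypoxic vehicle.

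**Figure D3:**
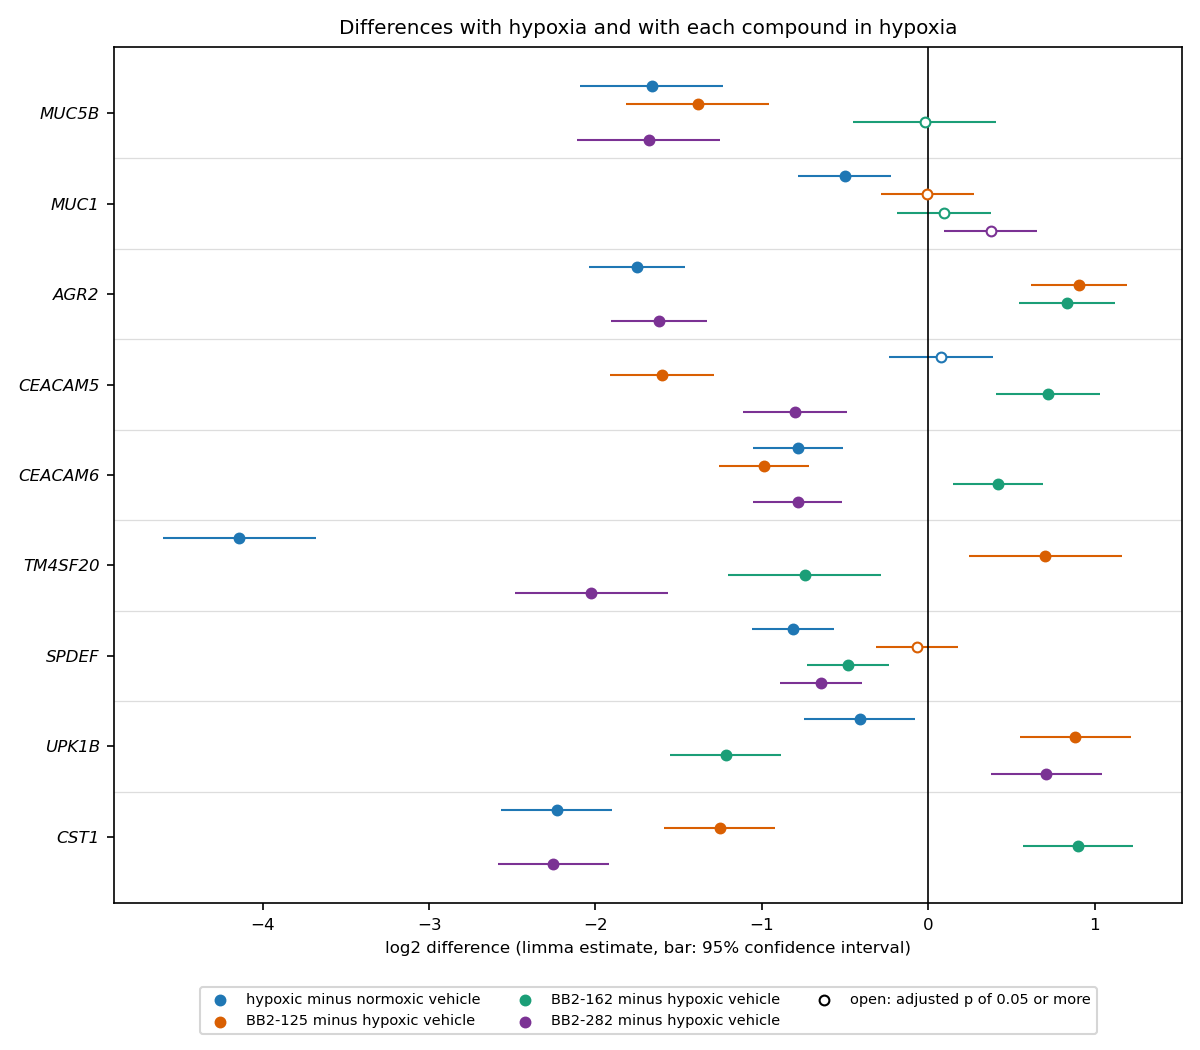
Log2 difference (horizontal axis) of each of the 9 genes for hypoxic against normoxic vehicle and for each compound against hypoxic vehicle, as limma estimates with 95% confidence intervals from 3 arrays per group. Filled points were called and open ones were not. BB2-282 lies left of 0 for 7 called genes, and CST1, CEACAM5 and CEACAM6 lie right of 0 with BB2-162 and left of 0 with both other compounds.

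The compounds were compared with each other at the same dose and time in 3 pairs, with no vehicle array in the difference. BB2-125 and BB2-162 differed in 7 of the 9 genes, where 26.1% of all genes were called. CEACAM5 was lower with BB2-125 by 2.32 ± 0.15, a 4.99-fold difference and the lowest of all 16005 genes (adjusted p = 5.29e-08 by limma), and CST1 by 2.15 ± 0.16, the second lowest. UPK1B was higher with BB2-125 by 2.10 ± 0.16, the second highest of all genes. MUC5B and CEACAM6 were lower by 1.36 ± 0.20 and 1.40 ± 0.13, and TM4SF20 and SPDEF higher by 1.45 ± 0.22 and 0.42 ± 0.12. The SPDEF call was lost without BB2-125 replicate 1 (limma, adjusted p = 0.0576) or BB2-162 replicate 3 (0.0638). AGR2 and MUC1 were not called, with 95% intervals of -0.22 to 0.36 and -0.38 to 0.18.

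BB2-125 and BB2-282 differed in 6 of the 9, where 36.3% of all genes were called. AGR2 was 5.75-fold higher with BB2-125 (2.52 ± 0.14, limma adjusted p = 3.17e-10) and TM4SF20 6.63-fold higher (2.73 ± 0.22, adjusted p = 2.45e-08). CST1 and SPDEF were higher with BB2-125 by 1.001 ± 0.16 and 0.58 ± 0.12, and CEACAM5 lower by 0.80 ± 0.15. MUC1, lower by 0.38 ± 0.13 (limma, adjusted p = 0.0321), lost its call when any 1 of the 3 BB2-125 arrays, or BB2-282 replicate 2 or 3, was left out (0.0544 to 0.123). MUC5B, CEACAM6 and UPK1B were not called, at 0.30 (95% interval -0.13 to 0.73), -0.20 (-0.47 to 0.07) and 0.17 (-0.16 to 0.51). Without BB2-125 replicate 1 CEACAM6 was called, at -0.35 and an adjusted p of 0.0423, and MUC5B was called, at 0.0361, when only these 2 groups entered the fit.

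BB2-162 and BB2-282 differed in 7 of the 9, where 35.8% of all genes were called. CST1 was 8.91-fold higher with BB2-162 (3.15 ± 0.16, limma adjusted p = 1.38e-10), the third highest difference of all genes. AGR2 was higher by 2.45 ± 0.14, MUC5B by 1.66 ± 0.20, CEACAM5 by 1.52 ± 0.15, TM4SF20 by 1.28 ± 0.22 and CEACAM6 by 1.20 ± 0.13, while UPK1B was lower by 1.93 ± 0.16. MUC1 and SPDEF were not called, with 95% intervals of -0.56 to 0.0007 and -0.08 to 0.41. The calls of the 9 genes in the 3 pairs were the same when p-values were adjusted over all 48015 tests of the 3 pairs together. The structures behind the code names were not used here.

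**Figure D4:**
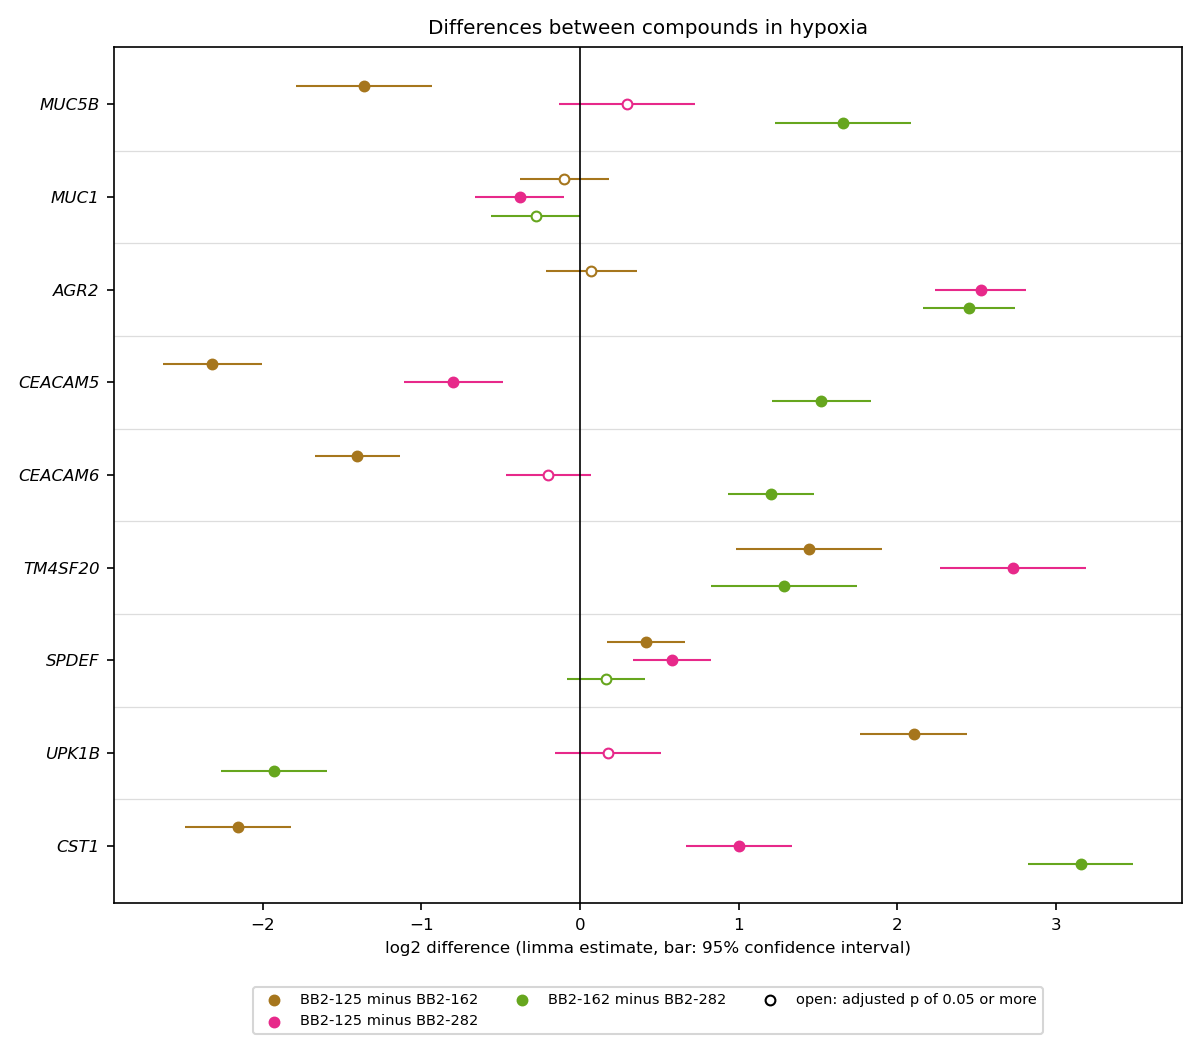
Log2 difference (horizontal axis) of each of the 9 genes between compounds in hypoxia, as limma estimates with 95% confidence intervals from 3 arrays per group; filled points were called. AGR2 and TM4SF20 lie right of 0 in both pairs with BB2-282, and UPK1B lies right of 0 for BB2-125 minus BB2-162 and left of 0 for BB2-162 minus BB2-282.

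Against normoxic vehicle, 9 of the 9 genes were called with BB2-125 (62% of all genes called) and with BB2-162 (76.8%), and 7 with BB2-282 (64.8%). The gene above normoxia was UPK1B with BB2-125, at 0.47 ± 0.16, and CEACAM5 with BB2-162. Without BB2-125 replicate 1 the UPK1B call was lost (limma, adjusted p = 0.0841), as it was without normoxic vehicle replicate 3 (0.0576). All 7 called with BB2-282 were lower (31.4% of all genes were called lower), and CST1 was 22.4-fold lower. MUC1 and UPK1B were not called with BB2-282, at -0.13 (95% interval -0.41 to 0.15) and 0.30 (-0.04 to 0.63). UPK1B was called there, at an adjusted p of 0.0417, without hypoxic vehicle replicate 3. With BB2-162, MUC1 gave -0.41, and -0.26 with an adjusted p of 0.0666 without BB2-162 replicate 1. CEACAM6 gave -0.36 with BB2-162, and its call was lost without normoxic vehicle replicate 2 (limma, adjusted p = 0.0909) or BB2-162 replicate 2 (0.0786).

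The order of the 5 groups differed between genes. Normoxic vehicle was highest for MUC5B, MUC1, AGR2, CEACAM6, TM4SF20, SPDEF and CST1, BB2-162 for CEACAM5 and BB2-125 for UPK1B. BB2-282 was lowest for MUC5B, AGR2, TM4SF20, SPDEF and CST1, and BB2-125 for MUC1, CEACAM5 and CEACAM6. Neighbours in that order that did not differ by limma were hypoxic vehicle and BB2-162 as well as BB2-125 and BB2-282 for MUC5B, BB2-125 and BB2-162 for AGR2, the vehicle groups for CEACAM5, BB2-282 and BB2-125 for CEACAM6 and UPK1B, BB2-282 and normoxic vehicle for UPK1B, and hypoxic vehicle and BB2-125 as well as BB2-162 and BB2-282 for SPDEF. For MUC1 no step between neighbours was called, and for TM4SF20 and CST1 every step was.

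The genes whose log2 values followed each of the 9 most closely were ranked by Pearson's r over the 15 arrays, which fall into 5 groups, so r largely compares group means. For TM4SF20 they were TM4SF4 (0.989), FASTKD1 (0.988) and SLC38A6 (0.988), and for AGR2 POLR2K (0.986), NDUFV2 (0.981) and TIMM8B (0.976). CST1 was nearest to CST2 (0.975), NTS (0.959) and PPARGC1A (0.951), and CEACAM6 to CST1 (0.933), TCN1 (0.930) and PDE4D (0.925). MUC5B was nearest to PPARGC1A (0.971), SMOC1 (0.962) and SLC7A2 (0.957). PPARGC1A, a coactivator of oxidative metabolism, thus stood in the first 3 for both MUC5B and CST1, and CST1 in those for CEACAM6. SPDEF was nearest to ZBTB8OS (0.974), GNG11 (0.967) and FGA (0.967), and UPK1B to LIMA1 (0.944), GRSF1 (0.943) and MSRB3 (0.924). The likeness was weakest for CEACAM5, with TMEM140 (0.902), BASP1 (0.895) and ISG20L2 (0.895), and MUC1, with ARHGEF40 (0.892), HR (0.859) and CES2 (0.856).

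For reference, VEGFA, a classical HIF target, rose by 3.66 ± 0.11 with hypoxia, fell by 0.87 ± 0.11 with BB2-125 and was not called with BB2-162 (-0.06 ± 0.11) or BB2-282 (0.13 ± 0.11). HIF1A mRNA fell by 2.11 ± 0.15 with hypoxia and rose by 0.63 ± 0.15 with BB2-125 and 1.28 ± 0.15 with BB2-162. With BB2-282 HIF1A was not called (-0.08 ± 0.15), and any link of these reference genes to the 9 was not tested.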

How the data were processed

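RNA of the 15 cultures was measured on Affymetrix whole-transcript arrays, 1 per culture, per the labels' protocols. The authors deposited linear intensities per probe set, 28869 per array, with RMA (background correction, normalisation between arrays and summary per probe set) named in the submitters' processing notes. RMA is meant to draw the arrays to 1 distribution, yet the medians of the deposited values ran from 74.91 to 84.6. It also compresses low signals, so small folds of dim genes are understated. The genome build was not given in the sources used here.

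Of the probe sets, 19310 had 1 symbol in the probe table, 1752 had several and 7807 were unnamed. The log2 was taken, the probe set of highest mean kept for each of 18377 genes, and 16005 genes tested that exceeded the array's 25th percentile on at least 3 arrays. limma 3.58.1 (R 4.3.3) fitted 5 group means to all 15 arrays, with 10 residual and 7.96 prior degrees of freedom, and 10 comparisons, adjusted by Benjamini-Hochberg within each. The script was tested on simulated data. The number of arrays limits the precision.

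The genes, the 16 lists (227 genes, from textbook knowledge, 7 of them cell markers) and the rules were chosen with earlier results of these data known. All 9 genes are named in each comparison, with up to 3 called genes of lowest p per list and the 3 genes of highest r. The TM4SF18 value with BB2-282, the EHF, TM4SF4 and CST2 values outside that rule and the CEACAM1 and UPK1A means were chosen after they were seen.

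Same-numbered arrays were checked for pairing by the correlation of their deviations from group means. Each was over 0.1 for BB2-125 and hypoxic vehicle alone (0.19 to 0.33), 1 of 10 pairs of groups, and they ran from -0.43 to 0.58 overall. The labels name no shared batch, and the block changed no call of the 9 genes in that pair. Promoters came from the RefSeq table of GRCh38.p14, which held 7 of the 10 genes. Alternatives were other scalings, filters, weights, blocks, a summed constant and arrays left out.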

Additional observations from a re-analysis of the deposited data

How the results depend on the processing

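The 9 genes gave 90 differences, each recomputed under 26 alternatives. Of the 2340 values, 2288 kept their direction and side of the threshold, 29 lost a call, 11 gained one and 12 changed sign, in 18 of the 90 differences. The sign changes were all in differences not called in either form. Quantile normalisation gave 0.0815 for MUC5B with BB2-162 and -0.0607 for AGR2 in BB2-125 against BB2-162, where array weights gave -0.0323. With 1 array left out, MUC5B with BB2-162 ran from -0.1848 to 0.1655, AGR2 in BB2-125 against BB2-162 from -0.1015 to 0.1891, MUC1 from -0.1519 to 0.0864 with BB2-125 and from -0.0517 to 0.2398 with BB2-162, and CEACAM5 with hypoxia from -0.1109 to 0.1728. The number of the 9 genes called changed by at most 1 under any alternative. Quantile normalisation ended the hypoxia call of UPK1B (limma, adjusted p = 0.111) and the BB2-162 against normoxia call of CEACAM6 (0.0936). Median centring ended the CEACAM6 call with BB2-162 (0.0668) and that of UPK1B for BB2-125 against normoxia (0.0505). Fitting the 2 groups alone ended the TM4SF20 call with BB2-162 (0.0589). Array weights gave a call to MUC1 with BB2-282 (0.0233).

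Over all genes, calls for BB2-162 against hypoxic vehicle were 5780, and 3494 in a fit of the 2 groups alone. For BB2-282 they were 2176, 4193 with array weights, and 1222 to 2767 with 1 array left out, lowest without hypoxic vehicle replicate 1. For BB2-125 against BB2-162 they were 4182, 2582 in the 2 groups alone, and 2645 to 6208 with 1 array left out, lowest without BB2-162 replicate 3. The cause was not tested. Median centring moved the share of calls that were higher from 43.4% to 28.2% for BB2-162, from 63.9% to 74.4% for BB2-125 against BB2-162 and from 43.4% to 32.9% for BB2-162 against BB2-282. It moved the median of all genes for BB2-162 against normoxia from 0.14 to 0.03, and under it no difference of the 9 genes changed direction.

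With the replicate number as a block in the 2 groups compared, an alternative added after seeing the data, 3672 genes were called for BB2-162 and 1849 for BB2-125 against BB2-162. The labels give no shared source for same-numbered arrays. In that fit the SPDEF call for BB2-125 against BB2-162 was lost (limma, adjusted p = 0.0678), as was that of CEACAM6 for BB2-162 against normoxia (0.0566), and MUC5B was called for BB2-125 against BB2-282 (0.0393). UPK1B was called for BB2-282 against normoxia (0.00866).

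The named list genes gave 134 differences and 3463 recomputed values, of which 180 lost a call and 0 reversed, in 39 of the 134. Of 1664 recomputed counts of calls per list, 168 moved by over 1.5 times or from or to 0, in 37 of 64 counts. The named genes were picked for low p, so the 2 results cannot be compared.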
